A study of Mus musculus with 22 samples.

Results

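The parietal endoderm genes described here are Pth1r, Pthlh, Srgn, Thbd and Plat, 5 gene symbols taken by name from a table of 55367 symbols measured by RNA-seq in 22 libraries of mouse cells. All 5 were listed in the table, and 4 passed the filter on low counts that left 17547 genes for testing; Pthlh did not pass. The series asks how EZH2, the catalytic subunit of the Polycomb complex PRC2 that methylates histone H3 at lysine 27, holds embryonic stem cells (ESCs) back from the primitive endoderm (PrE) fate.

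The 22 libraries fall into 10 groups. EPZ_iPrE2 and EPZ_iPrE1 are a pair of PrE-like stem cell lines of E14 origin that had been induced from wild-type ESCs with EPZ-6438, an inhibitor of EZH2, and were kept in PrE stem cell medium (2 libraries each). C57_PrESC is a wild-type PrE stem cell line labelled C57 in the same kind of medium (2 libraries). KO10_SL_rescued is the Ezh2 knockout line 10 with EZH2 put back, grown with LIF (2 libraries). KO10_S2iL and KO10_SL are the Ezh2 knockout line 10, labelled E14, grown with LIF and 2i (2 libraries) or with LIF without 2i (3 libraries). In the comparisons of E14 cells, the LIF medium without 2i was taken as serum with LIF. 2i is a pair of inhibitors that block the MEK and GSK3 kinases. TG2A_S2iL is a wild-type line of E14 origin with LIF and 2i (2 libraries). C57_ESC (2 libraries), E14_ESC (3 libraries) and TG2A_ESC (2 libraries) are wild-type ESCs with LIF. All knockout libraries come from line 10, the rescued cells derive from it, and each PrE group is also 1 line. No label spells out the column names of the rescued cells and of TG2A_S2iL in the count table, so these columns were assigned by inference, and all values of those groups rest on it. The labels do not say whether replicates came from separate cultures, so p-values measure only the spread between these libraries.

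The parietal endoderm is the extraembryonic lineage that leaves the PrE, migrates along the trophoblast and lays down the thick basement membrane called Reichert's membrane. Parathyroid hormone-related protein, encoded by Pthlh, acts through the receptor encoded by Pth1r, which couples to Gs and raises cAMP, and in mouse cell culture this signal drives PrE cells towards the parietal type. Srgn encodes serglycin, an intracellular proteoglycan core protein that was first found in a rat yolk sac tumour of parietal type. Thbd encodes thrombomodulin, the cell-surface receptor that turns thrombin into an activator of protein C, and Plat encodes tissue plasminogen activator, a secreted protease made by parietal endoderm and by parietal-like teratocarcinoma cells.

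In GENCODE M21 on GRCm38, Pth1r (ENSMUSG00000032492.14) lies on the minus strand of chromosome 9 from 110722085 to 110747145. Pthlh (ENSMUSG00000048776.8) lies on the minus strand of chromosome 6 from 147252101 to 147264183. Srgn (ENSMUSG00000020077.14) lies on the minus strand of chromosome 10 from 62493833 to 62527451. Thbd (ENSMUSG00000074743.4), a gene of 1 exon, lies on the minus strand of chromosome 2 from 148404466 to 148408188. Plat (ENSMUSG00000031538.6) lies on the plus strand of chromosome 8 from 22757727 to 22782844. Of the 5, only Pth1r overlaps another annotated gene, Myl3 on the plus strand from 110741861 to 110769798. Without a stated strand setting, reads from the shared stretch cannot be assigned with certainty, and their part in the Pth1r values was not tested. Myl3 had 0 to 3.59 CPM (counts per 1000000 counts of a scaled library) in all libraries. By edgeR's quasi-likelihood test, Myl3 was higher in EPZ_iPrE1 than in TG2A_ESC (log2 fold change 3.14, adjusted p = 0.0209). It was also higher in C57_PrESC than in C57_ESC (3.00, adjusted p = 0.0140). The test did not call it in EPZ_iPrE2 (2.00, adjusted p = 0.143) or in KO10_SL against E14_ESC (0.79, adjusted p = 0.470).

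RefSeq promoter windows, 250 bases before to 50 bases after a start site on GRCm38.p6, were at hand for 3 of the 5 genes, 6 windows in all: 3 for Pth1r, 2 for Srgn and 1 for Pthlh. Thbd and Plat had none. The windows below are shown because Pth1r and Srgn were the genes that moved together across the groups, while Pthlh was nearly silent. Each is printed 5′ to 3′ along its gene, with the capitals marking matches, on either strand, to GGGCGG (a GC box) or to TGACG (the core of the cAMP response element).
Pth1r, window 3, chr9:110742561-110742860, minus strand: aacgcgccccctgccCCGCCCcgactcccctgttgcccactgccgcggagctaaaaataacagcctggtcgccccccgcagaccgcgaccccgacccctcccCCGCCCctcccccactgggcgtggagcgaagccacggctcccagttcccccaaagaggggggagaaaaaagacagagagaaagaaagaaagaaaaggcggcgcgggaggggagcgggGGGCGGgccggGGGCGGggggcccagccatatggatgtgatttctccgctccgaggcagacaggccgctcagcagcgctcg
Srgn, window 2, chr10:62507708-62508007, minus strand: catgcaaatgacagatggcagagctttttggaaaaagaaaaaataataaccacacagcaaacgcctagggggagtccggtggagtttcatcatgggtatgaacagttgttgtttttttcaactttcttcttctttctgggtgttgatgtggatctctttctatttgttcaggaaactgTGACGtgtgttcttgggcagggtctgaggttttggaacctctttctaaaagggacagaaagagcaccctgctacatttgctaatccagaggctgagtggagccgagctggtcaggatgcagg
Pthlh, chr6:147263964-147264263, minus strand: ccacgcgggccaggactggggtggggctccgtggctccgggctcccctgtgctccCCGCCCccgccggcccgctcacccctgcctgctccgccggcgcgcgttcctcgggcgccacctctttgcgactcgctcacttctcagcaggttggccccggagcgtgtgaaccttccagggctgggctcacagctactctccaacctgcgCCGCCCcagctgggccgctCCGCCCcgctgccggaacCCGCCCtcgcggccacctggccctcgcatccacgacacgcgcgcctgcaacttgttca

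The motifs searched on both strands were the TATA box TATAAA, the GC box GGGCGG, the cAMP element core TGACG, 4 forms of the GATA site (AGATAA along with TGATAA, and AGATAG along with TGATAG) and the SOX core AACAAT. No matches in these 3 windows overlapped each other. The third Pth1r window holds GGGCGG 4 times, at -235, -148, -31 and -20 from the start site, and the Pthlh window holds it 4 times, at -195, -45, -26 and -8. GGGCGG is present in 35.7% of all 32851 windows. The second Srgn window holds TGACG at -72 and the first Pth1r window holds it at -161, as do 20.8% of all windows. TATAAA occurs in the first Srgn window at -98 and in 13.6% of all windows. None of the 6 windows holds any of the 4 GATA forms, of which at least 1 occurs in 29.8% of all windows, or AACAAT, which occurs in 10.7%. The windows differ in CG pairs: the Pth1r windows hold 5, 23 and 27, the Pthlh window 33, and the Srgn windows 8 and 4, beside a median of 7 and a 90% quantile of 31 over all windows. These matches describe the letters in the windows only.

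**Figure D1:**
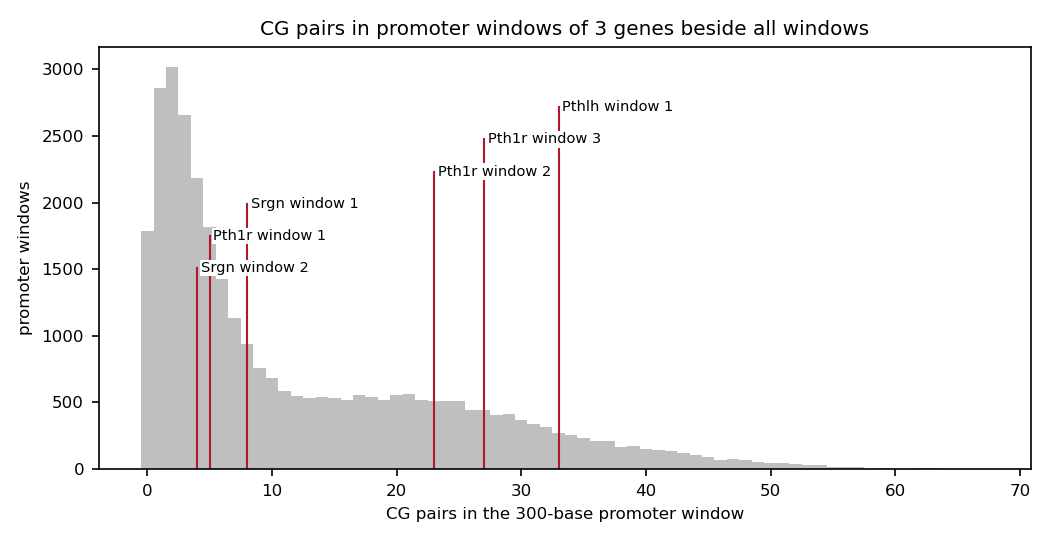
CG pairs (x axis) in the 300-base RefSeq promoter windows, with the number of windows on the y axis (grey bars, 32851 windows) and the 6 windows of Pthlh, Pth1r and Srgn as red lines. The Pthlh window with 33 CG pairs lies above the 90% quantile of 31, and the second Srgn window with 4 lies below the median of 7.

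Library totals lay between 13586043 and 26280949 estimated counts. The Pearson correlation of log2 CPM between replicates over 17547 genes was 0.967 in C57_PrESC and 0.973 in C57_ESC, and at least 0.988 in every other group. Ezh2 had 1 or 2 counts in each KO10_SL library and 6 and 0 counts in KO10_S2iL, against 495 and 532 CPM in the rescued cells. The wild-type level was 173 to 184 CPM in E14_ESC and 194 and 200 CPM in TG2A_ESC. The rescued cells were thus above the wild type (log2 fold change against E14_ESC 1.52, SE 0.140, adjusted p = 1.25e-04 by edgeR's quasi-likelihood test). As a check of the labels, the summed level of 7 PrE factors (Gata4, Gata6, Sox17, Sox7, Foxa2, Pdgfra and Dab2) was 1642 to 2118 CPM in the 6 PrE libraries. The same sum was 232 to 292 CPM in KO10_SL and 6.60 to 94.2 CPM in all ESC libraries without the knockout in LIF medium. The summed level of 12 fibroblast markers was higher in the first EPZ_iPrE1 library (161 CPM), the second EPZ_iPrE2 library (265 CPM), the second C57_PrESC library (2027 CPM) and the second C57_ESC library (451 CPM) than in their partners, which had 27, 52.0, 29.4 and 38.9 CPM. Some, but not all, of the results that rest on these libraries are also given without them. In such bulk samples, fewer cells of a type and less RNA per cell cannot be told apart.

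Pth1r, the receptor, was high in all PrE lines and intermediate in knockout cells grown with LIF. It had 92.9 and 65.6 CPM in EPZ_iPrE2 and 55.3 and 77.8 CPM in EPZ_iPrE1, against 1.51 and 1.47 CPM in TG2A_ESC. It had 305 and 173 CPM in C57_PrESC, against 4.29 and 5.95 CPM in C57_ESC. Every PrE library was above every other library. The log2 fold change against the ESCs of the same origin was 5.73 in EPZ_iPrE2 (SE 0.364, adjusted p = 1.21e-09), 5.48 in EPZ_iPrE1 (SE 0.362, adjusted p = 1.97e-09) and 5.54 in C57_PrESC (SE 0.334, adjusted p = 7.08e-10) by edgeR's quasi-likelihood test with Benjamini-Hochberg adjustment over all genes, which is the test behind every adjusted p below unless another tool is named. On the linear scale the group means were 53.3-fold, 44.8-fold and 46.7-fold higher. The mean change of both EPZ lines less the change of the C57 line was 0.06 (SE 0.420, adjusted p = 0.984), a difference smaller than its error.

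In knockout cells with LIF, Pth1r had 12.9, 19.1 and 19.4 CPM, against 1.32, 0.717 and 0.821 CPM in E14_ESC. All 3 knockout libraries were above all wild-type ESC libraries, and the group mean was 18-fold higher than in E14_ESC (log2 fold change 4.18, SE 0.310, adjusted p = 4.48e-08). In the rescued cells it stood at 0.720 and 0.428 CPM, below all 3 KO10_SL libraries (log2 fold change -4.89, SE 0.40, adjusted p = 1.68e-07). Against E14_ESC, the rescued cells showed a log2 difference of -0.70 that did not pass the test (SE 0.522, adjusted p = 0.766).

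With 2i, Pth1r was low in both genotypes, with 1.66 and 2.02 CPM in KO10_S2iL against 0.18 and 0.409 CPM in TG2A_S2iL. The knockout level was still the higher of these groups, which did not overlap (log2 fold change 2.61, SE 0.590, adjusted p = 0.00365). Without the first TG2A_S2iL library the change was 2.13 with an adjusted p of 0.0502, and without the second it was 3.29 with an adjusted p of 0.0173. Set against LIF without 2i, Pth1r was lower with 2i in the knockout (log2 fold change -3.22, SE 0.330, adjusted p = 2.88e-06) and in the wild type (log2 fold change -2.30, SE 0.612, adjusted p = 0.0121). The wild-type call was lost without the first TG2A_S2iL library (-1.85, adjusted p = 0.112), and the change was -3.01 without the second (adjusted p = 0.0365).

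Over the 10 groups the order of the Pth1r means was C57_PrESC (239 CPM), EPZ_iPrE2 (79.3 CPM), EPZ_iPrE1 (66.6 CPM), KO10_SL (17.1 CPM), C57_ESC (5.12 CPM), KO10_S2iL (1.84 CPM), TG2A_ESC (1.49 CPM), E14_ESC (0.952 CPM), KO10_SL_rescued (0.574 CPM) and TG2A_S2iL (0.294 CPM). Neighbours whose libraries overlapped were EPZ_iPrE2 with EPZ_iPrE1, and E14_ESC with KO10_SL_rescued.

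Pthlh, the ligand of that receptor, was almost undetected. It had 13 counts in all, spread over 7 of the 22 libraries, with 5 as the highest count, and was left out of the test by the filter on low counts. The 6 PrE libraries held 0 counts, so its level there may be up to 0.0342 CPM by the limit of 3 counts over those libraries, which covers counting error only. The KO10_SL libraries held 0, 5 and 2 counts, against 2, 0 and 0 counts in E14_ESC, a ratio of 2.90 with a 95% counting interval of 0.552 to 28.6. In the PrE lines, therefore, transcripts of the receptor were abundant and those of its ligand were not detectable at this depth.

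Srgn reached the highest level of the 5 genes, in CPM and per kilobase of exon, and had the widest range. It had 529 and 702 CPM in EPZ_iPrE2 and 534 and 399.8 CPM in EPZ_iPrE1, against 2.91 and 3.51 CPM in TG2A_ESC. C57_PrESC had 774 and 957 CPM, against 21.9 and 0.656 CPM in C57_ESC. Each PrE library exceeded each ESC library, and the C57_ESC pair differed widely from each other. The log2 fold change was 7.58 in EPZ_iPrE2 (SE 0.828, adjusted p = 6.23e-07), 7.18 in EPZ_iPrE1 (SE 0.817, adjusted p = 1.06e-06) and 6.27 in C57_PrESC (SE 0.757, adjusted p = 2.18e-06), or 192-fold, 145-fold and 76.8-fold on the linear scale. The first C57_ESC library, with 21.9 CPM of Srgn, also had the higher sum of PrE factors, 94.2 CPM against 20.6 CPM in the second, and its part in the result was not tested. The C57 change was 10.4 without the first C57_ESC library (adjusted p = 2.90e-11) and 5.32 without the second (adjusted p = 1.47e-09). Whether the EPZ and C57 changes differed rested on the same pair: the difference was 1.11 in the full fit (adjusted p = 0.389), -2.97 without the first (adjusted p = 3.48e-04) and 2.06 without the second (adjusted p = 2.22e-04).

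Knockout cells with LIF had 53.0, 46.0 and 45.6 CPM of Srgn, against 1.32, 1.02 and 0.709 CPM in E14_ESC. The 3 knockout libraries lay close together and above all wild-type ESC libraries, with a mean 47.5-fold that of E14_ESC (log2 fold change 5.62, SE 0.714, adjusted p = 8.53e-06). The rescued cells had 1.72 and 0.696 CPM, well below KO10_SL (log2 fold change -5.32, SE 0.832, adjusted p = 8.04e-05) and overlapping with E14_ESC (0.30, SE 1.10, adjusted p = 0.985). Without the first rescued library the change against KO10_SL was -6.12 (adjusted p = 0.00205).

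Srgn was not called higher in the knockout when 2i was present, with 0.855 and 1.09 CPM in KO10_S2iL against 1.80 and 1.46 CPM in TG2A_S2iL. Both knockout values lay below both wild-type values, but the log2 difference of -0.74 did not pass the test (SE 1.16, adjusted p = 0.675). Between KO10_S2iL and KO10_SL the log2 fold change was -5.63 (SE 0.851, adjusted p = 9.38e-05). The knockout change with 2i less that without 2i, with TG2A cells as the wild type in both media, was -4.65 for Srgn (SE 1.37, unadjusted p = 0.00363, adjusted p = 0.0894). Over all alternatives it stayed between -4.82 and -4.48, so the adjusted p that follow vary far more than the change and are no added evidence. That difference was called by DESeq2 (-4.61, adjusted p = 0.00675), in a fit to the 4 compared groups alone (adjusted p = 6.13e-05) and without the filter on low counts (adjusted p = 2.65e-37), and the adjusted p reached 0.331 over all alternatives.

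The Srgn means ran in the order C57_PrESC (865 CPM), EPZ_iPrE2 (615 CPM), EPZ_iPrE1 (467 CPM), KO10_SL (48.2 CPM), C57_ESC (11.3 CPM), TG2A_ESC (3.21 CPM), TG2A_S2iL (1.63 CPM), KO10_SL_rescued (1.21 CPM), E14_ESC (1.01 CPM) and KO10_S2iL (0.970 CPM). Libraries of EPZ_iPrE2 and EPZ_iPrE1 overlapped, as did those of C57_ESC and TG2A_ESC, and each neighbouring pair from TG2A_S2iL downwards. Per kilobase of annotated exon, the Srgn level was 394 CPM per kb in C57_PrESC and 22 CPM per kb in KO10_SL. Pth1r reached 81.7 and 5.86 CPM per kb in those groups, and Plat 2.08 and 0.663 CPM per kb.

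**Figure D2:**
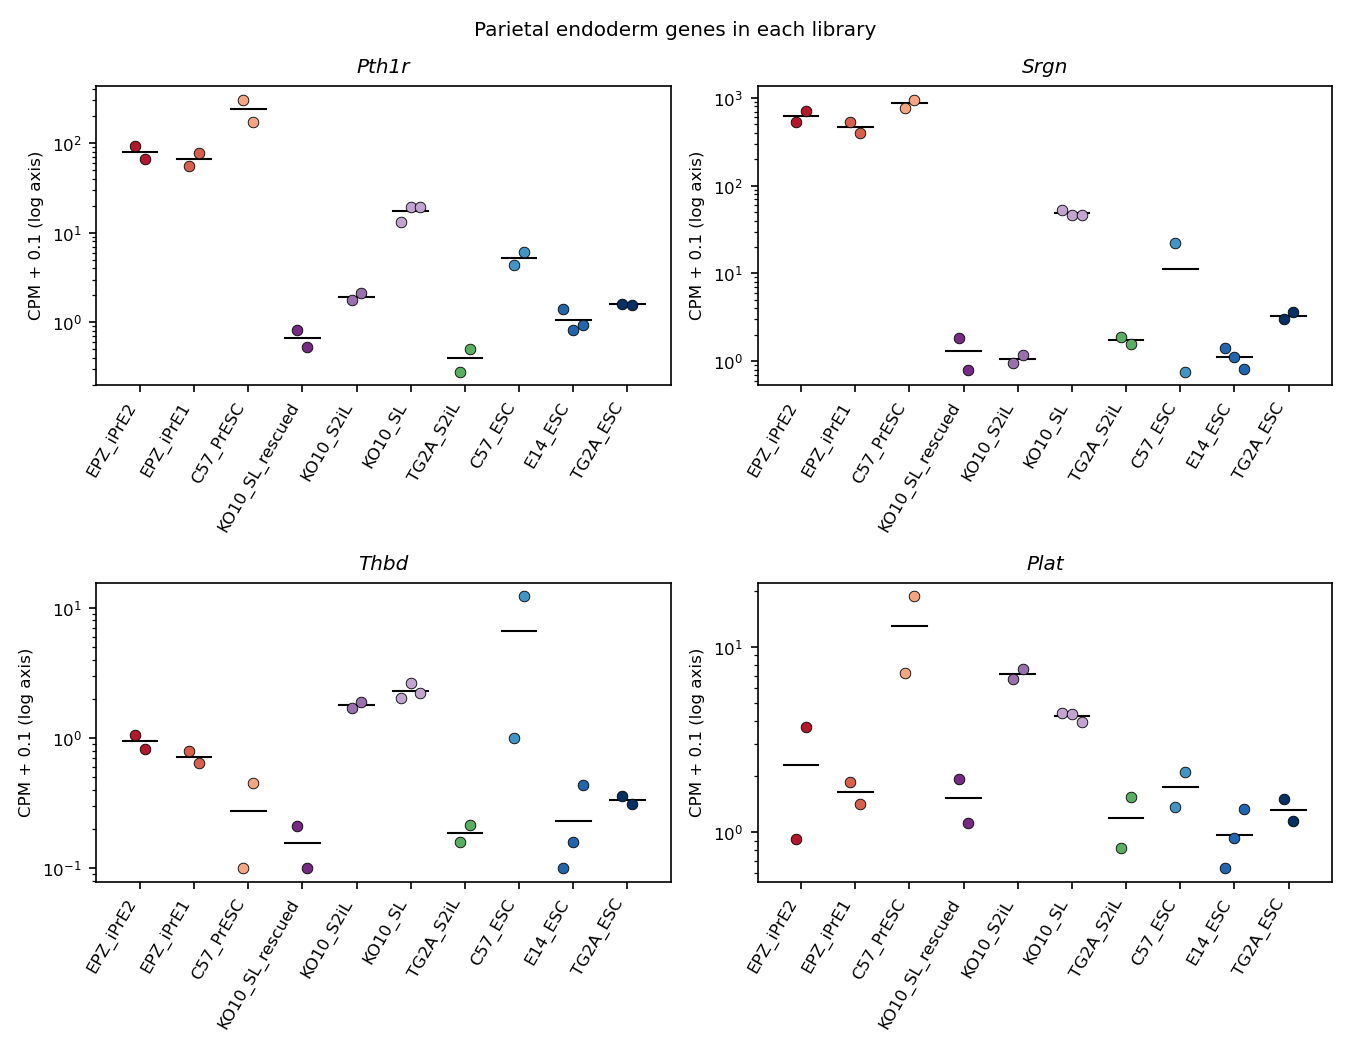
Level of Pth1r, Srgn, Thbd and Plat in each of 22 libraries (points, CPM plus 0.1 on a log axis) with the group mean as a bar, for 10 groups along the x axis. Pth1r and Srgn are highest in the PrE groups and stand at 12.9 to 19.4 and 45.6 to 53.0 CPM in KO10_SL, whereas Thbd is highest in 1 C57_ESC library at 12.2 CPM and Plat in 1 C57_PrESC library at 18.7 CPM.

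Thbd, the thrombin receptor, was low throughout and was not called higher in any PrE line. It had 0.961 and 0.723 CPM in EPZ_iPrE2 and 0.691 and 0.546 CPM in EPZ_iPrE1, against 0.260 and 0.210 CPM in TG2A_ESC. The EPZ libraries were all above the TG2A_ESC libraries, on 7 to 14 counts each against 5 and 4, but neither log2 difference passed the test (1.81, SE 1.15, adjusted p = 0.181 in EPZ_iPrE2 and 1.37, SE 1.20, adjusted p = 0.336 in EPZ_iPrE1). The EPZ_iPrE2 difference was called without the filter on low counts (adjusted p = 0.0350) and in a fit to the compared groups alone (adjusted p = 0.0368).

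In the C57 pair Thbd ran the other way, with 0 and 0.349 CPM in C57_PrESC against 0.900 and 12.2 CPM in C57_ESC. The groups did not overlap, and the wide spread came from the second C57_ESC library, which held 242 of the 259 ESC counts. The log2 fold change was -5.11 (SE 1.15, adjusted p = 0.00106). Without the second C57_ESC library it was -2.24 and not called (adjusted p = 0.0822), and in a fit to the compared groups alone the adjusted p was 0.101. The change was -5.97 without the first C57_ESC library (adjusted p = 2.56e-05) and -4.21 without the first C57_PrESC library (adjusted p = 0.0110). Leaving out the second C57_PrESC library left 0 counts on the PrE side and thus no fold.

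Thbd was higher in the knockout in both media. It had 1.95, 2.53 and 2.12 CPM in KO10_SL, against 0, 0.0598 and 0.336 CPM in E14_ESC, with no overlap (log2 fold change 3.78, SE 0.924, adjusted p = 0.00294). Without the third E14_ESC library, which held 9 of the 10 wild-type counts, the call held with an adjusted p of 0.00248. The rescued cells held 2 Thbd counts, against 160 in KO10_SL, a ratio of 0.0248 with a 95% counting interval of 0.00297 to 0.0909, and the fall was called with an adjusted p of 0.00400. That call was lost without the second rescued library (adjusted p = 0.0549), and leaving out the first left 0 counts on the rescued side.

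With 2i, Thbd had 1.61 and 1.81 CPM in KO10_S2iL, against 0.0600 and 0.117 CPM in TG2A_S2iL. These were 67 counts against 3, a ratio of 19.2 with a 95% counting interval of 6.31 to 95.6, and the rise was called in the full fit (adjusted p = 0.0221) but in none of the 4 fits that left out 1 library of the comparison (adjusted p 0.0573 to 0.143). Between KO10_S2iL and KO10_SL the log2 difference was -0.36 (SE 0.821, adjusted p = 0.767).

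The Thbd means were ordered C57_ESC (6.56 CPM), KO10_SL (2.20 CPM), KO10_S2iL (1.71 CPM), EPZ_iPrE2 (0.842 CPM), EPZ_iPrE1 (0.618 CPM), TG2A_ESC (0.235 CPM), C57_PrESC (0.174 CPM), E14_ESC (0.132 CPM), TG2A_S2iL (0.0884 CPM) and KO10_SL_rescued (0.0554 CPM). C57_ESC overlapped KO10_SL, and the neighbours from TG2A_ESC downwards overlapped each other.

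Plat, the plasminogen activator, was called higher in C57_PrESC and in the knockout, but not in either EPZ line. It had 0.824 and 3.62 CPM in EPZ_iPrE2 and 1.77 and 1.33 CPM in EPZ_iPrE1, against 1.40 and 1.05 CPM in TG2A_ESC. The EPZ values lay on both sides of the TG2A_ESC values, and the log2 differences of 0.86 (SE 0.598, adjusted p = 0.224) and 0.33 (SE 0.618, adjusted p = 0.664) did not pass the test. The EPZ_iPrE2 difference turned on 1 library, being -0.57 without the second (adjusted p = 0.506) and 1.55 without the first (adjusted p = 0.0315).

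C57_PrESC had 7.17 and 18.7 CPM of Plat, against 1.27 and 2.02 CPM in C57_ESC. Both PrE libraries were above both ESC libraries, and the mean was 7.87-fold higher (log2 fold change 2.97, SE 0.585, adjusted p = 3.32e-04). The change was 2.11 without the second C57_PrESC library (adjusted p = 0.00567). That library, with 18.7 CPM of Plat, had 2027 CPM of fibroblast markers against 29.4 CPM in its partner, with all 12 markers above 0 in both. Without it and the other 3 libraries with more fibroblast markers, the change was 2.48 (adjusted p = 6.72e-04).

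Knockout cells with LIF had 4.30, 4.25 and 3.86 CPM of Plat, against 0.539, 0.837 and 1.23 CPM in E14_ESC. The 3 knockout libraries lay within a narrow band above all wild-type ESC libraries, and the mean was 4.76-fold that of E14_ESC (log2 fold change 2.21, SE 0.488, adjusted p = 0.00136). The sum of the fibroblast markers in KO10_SL was 44.4 to 49.9 CPM, with 3 or 4 of the 12 at 0, against 24.2 to 33.8 CPM in E14_ESC. Of it, Thy1 was 23.8 to 25.4 CPM, against 9.21 to 12.2 CPM in E14_ESC. Col1a2 was 2.31 to 3.22 CPM against 0.299 to 0.598 CPM, and Col1a1 2.07 to 2.90 CPM against 1.85 to 3.02 CPM. Twist1 was higher, at 4.47 to 7.50 CPM against 0.778 to 0.933 CPM. Tagln was lower, at 0.754 to 1.21 CPM against 3.76 to 10.2 CPM. Pdgfrb overlapped, at 8.60 to 11.2 CPM against 7.12 to 10.8 CPM. Postn, Dcn and Col3a1 were at 0.127 CPM or less in KO10_SL. The part of these markers in the Plat result was not tested. The rescued cells had 1.83 and 1.02 CPM (log2 fold change against KO10_SL -1.54, SE 0.543, adjusted p = 0.0296). That call was lost in each of the 5 fits that left out 1 rescued or KO10_SL library, with adjusted p from 0.0520 to 0.219.

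Plat reached its highest level among E14 cells in the knockout with 2i, where it had 6.59 and 7.54 CPM, against 0.720 and 1.46 CPM in TG2A_S2iL. The groups were far apart, with a mean 6.49-fold higher in the knockout (log2 fold change 2.69, SE 0.60, adjusted p = 0.00335), and the adjusted p was 0.0573 without the first TG2A_S2iL library. Between KO10_S2iL and KO10_SL the libraries did not overlap, but the log2 difference of 0.77 did not pass the test (SE 0.483, adjusted p = 0.229), except in a fit to those groups alone (0.71, adjusted p = 0.00264). Plat and Thbd were not called lower with 2i in the knockout, as Pth1r and Srgn were, but no test compared the genes with each other.

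The Plat means were C57_PrESC (12.9 CPM), KO10_S2iL (7.07 CPM), KO10_SL (4.14 CPM), EPZ_iPrE2 (2.22 CPM), C57_ESC (1.64 CPM), EPZ_iPrE1 (1.55 CPM), KO10_SL_rescued (1.42 CPM), TG2A_ESC (1.23 CPM), TG2A_S2iL (1.09 CPM) and E14_ESC (0.869 CPM). KO10_S2iL and KO10_SL did not overlap, nor did KO10_SL and EPZ_iPrE2, while all other neighbours did.

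**Figure D3:**
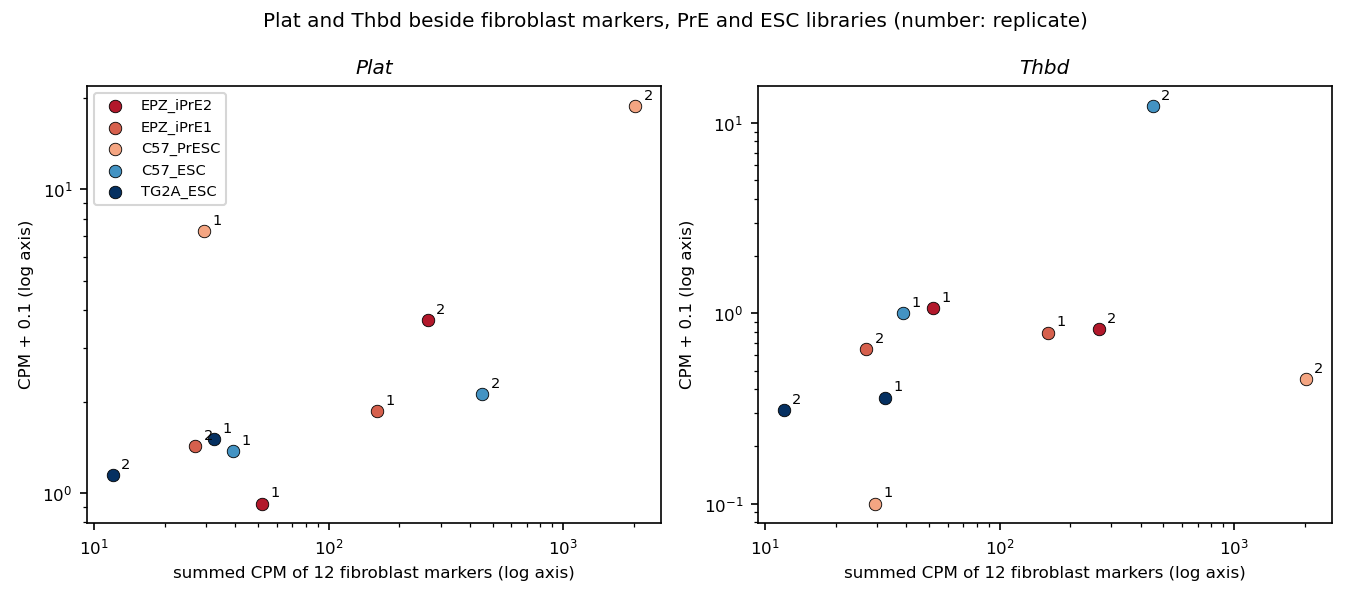
Plat and Thbd (y axes, CPM plus 0.1, log axis) against the summed CPM of 12 fibroblast markers (x axis, log axis) in the 10 PrE and ESC libraries of the PrE comparisons, with the replicate number beside each point. Plat is highest, at 18.7 CPM, in the C57_PrESC library with 2027 CPM of the markers, but C57_PrESC replicate 1 has 7.17 CPM of Plat with 29.4 CPM of the markers. Thbd is highest, at 12.2 CPM, in the C57_ESC library with 451 CPM of the markers.

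Counted over the 4 tested genes, 2 were called in EPZ_iPrE2 and 2 in EPZ_iPrE1 against TG2A_ESC, Pth1r and Srgn in both, where 62.2% and 60.1% of all tested genes were called in either direction. In C57_PrESC against C57_ESC all 4 were called, 3 higher and Thbd lower, beside 60.6% of all genes, so the counts in the PrE lines do not stand out from the background. The EPZ and C57 changes differed for 2 of the 4, Thbd and Plat, beside 35.1% of all genes. Between EPZ_iPrE2 and EPZ_iPrE1 none of the 4 was called by edgeR, and none had an unadjusted p under 0.05, beside 3.91% of all genes called.

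In KO10_SL against E14_ESC all 4 were called higher, beside 48.6% of all genes called and 25.8% called higher. Against TG2A_ESC, the other wild-type set in the same medium, all 4 were again called higher, beside 27.7% of all genes called and 13.6% called higher. There the log2 fold changes were 3.52 for Pth1r, 3.91 for Srgn, 3.19 for Thbd (adjusted p = 0.0301) and 1.75 for Plat (adjusted p = 0.0254). The Thbd call against TG2A_ESC was lost in 4 of the 5 fits that left out 1 library (highest adjusted p 0.15), and the Plat call in 4 of the 5 (highest adjusted p 0.153). These comparisons share the KO10_SL libraries, and E14_ESC and TG2A_ESC themselves differed in 24.3% of all genes but in none of the 4 (Srgn, -1.71, SE 0.911, adjusted p = 0.192). That Srgn difference was called in a fit to those groups alone (-1.68, adjusted p = 0.0140) and without the filter on low counts (-1.69, adjusted p = 9.12e-13).

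All 4 were called lower in the rescued cells than in KO10_SL, beside 45.0% of all genes called and 24.1% called lower. Against E14_ESC none of the 4 was called in the rescued cells, beside 0.108% of all genes, while Ezh2 itself was called higher. With 2i, 3 of the 4 were called higher in the knockout than in TG2A_S2iL, beside 30.0% of all genes called and 15.7% called higher. The move to 2i called 1 of the 4 in wild-type cells, Pth1r, beside 23.3% of all genes, and 2 of the 4 in the knockout, Pth1r and Srgn, beside 36.9%. Of these, the wild-type Pth1r call is the one lost without the first TG2A_S2iL library, and Srgn in wild-type cells (-0.98, adjusted p = 0.504) was called without the filter on low counts (adjusted p = 2.94e-04). The change of the knockout effect with the medium was called for none of the 4 in edgeR, beside 1.95% of all genes, with 1 of the 4 (Srgn) at an unadjusted p under 0.05.

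**Figure D4:**
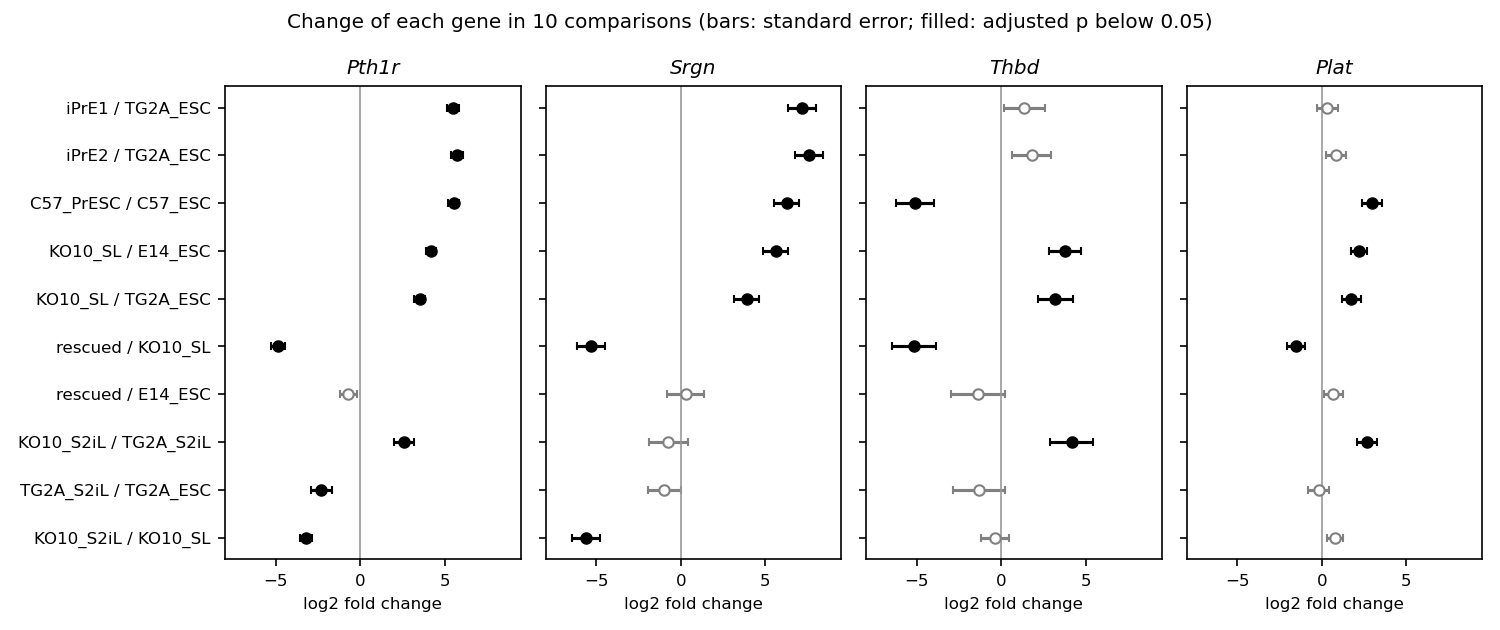
Log2 fold change (x axis) of Pth1r, Srgn, Thbd and Plat in 10 comparisons, each named as first group over second, with bars for the standard error and filled points for an adjusted p below 0.05. Pth1r and Srgn lie between 5.48 and 7.58 in the 3 PrE comparisons, all 4 genes lie above 0 in KO10_SL against E14_ESC and below 0 in the rescued cells against KO10_SL.

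Other genes known from the parietal endoderm were read from a list of 12. It held genes of basement membrane proteins, Sparc, the retinol receptor gene Stra6, Fst, Snai1, Vim and Krt19. Of these, 11 rose in EPZ_iPrE2 and 10 in EPZ_iPrE1 with none lower, while in C57_PrESC 8 rose and 1, Fst, fell. In these comparisons 27.3 to 28.8% of all tested genes rose and 32.2 to 33.4% fell. Vim had 66.6 and 9.59 CPM in EPZ_iPrE1, 11.7 and 101 CPM in EPZ_iPrE2 and 14.2 and 790 CPM in C57_PrESC. It had 91.4 and 176 CPM in TG2A_ESC and 98.9 and 321 CPM in C57_ESC. The lower Vim value of each PrE pair, in the library with fewer fibroblast markers, was below all of these ESC values. The follistatin gene Fst had 0.880 and 1.92 CPM in C57_PrESC, against 1.96 and 8.22 CPM in C57_ESC, so the fall (log2 fold change -1.85, adjusted p = 0.00931) rested on the second C57_ESC library, the one with 451 CPM of fibroblast markers. Without that library it was -0.45 and not called (adjusted p = 0.498), and without the first C57_PrESC library it was -1.41 and not called (adjusted p = 0.0860). Without the 4 libraries with more fibroblast markers, each PrE group and C57_ESC held 1 library. The median log2 fold change of the list was then 3.92 in EPZ_iPrE2, 4.01 in EPZ_iPrE1 and 3.76 in C57_PrESC. At least 1 gene of the list had a negative change in each of these comparisons. The Fst change in C57_PrESC was -1.16. With all libraries, the median log2 fold change of the list was 3.85 in EPZ_iPrE2, 3.90 in EPZ_iPrE1 and 3.63 in C57_PrESC, beside -0.11, -0.07 and -0.09 over all tested genes. The largest changes were those of Stra6 and of the collagen IV chain genes Col4a2 and Col4a1. Col4a2 averaged 3783 ± 814 CPM in EPZ_iPrE2 and 3976 ± 560 CPM in EPZ_iPrE1, against 41.9 ± 3.54 CPM in TG2A_ESC (SD, n = 2 each), with log2 fold changes of 6.50 and 6.57. In KO10_SL against E14_ESC, 8 of the 12 rose and none fell, where 25.8% of all tested genes rose and 22.7% fell. The median was 1.80, beside 0.07 over all genes, with Col4a2 at 4.67 (SE 0.318, adjusted p = 2.32e-08). Against TG2A_ESC, 7 of the 12 rose in KO10_SL and none fell (median 1.51, beside 0.02), where 13.6% of all genes rose and 14.1% fell. The rescued cells had 8 lower than KO10_SL (median -1.99, beside -0.11), where 24.1% of all genes were lower. With 2i the knockout had 4 higher (median 0.57, beside 0.01), where 15.7% of all genes were higher. The summed level of the list was 17609 to 27869 CPM in the 6 PrE libraries, against 1374 to 2230 CPM in the libraries of C57_ESC, E14_ESC and TG2A_ESC. Of 12 visceral endoderm markers 7 were tested, and 4 rose and 3 fell in each PrE comparison. Cubn and Amn, which encode the parts of an endocytic receptor, rose, as did Ihh and Hnf4a. Apob, Rbp4 and Trf, which encode secreted transport proteins, fell. Hnf4a had 70.4 and 28.1 CPM in EPZ_iPrE1 and 27.9 and 77.9 CPM in EPZ_iPrE2, against 1.20 and 0.838 CPM in TG2A_ESC. It had 38.5 and 46.6 CPM in C57_PrESC, against 0.688 and 0 CPM in C57_ESC. The sum of the 12 was 292 to 5126 CPM in the PrE libraries, with 3 to 8 of them at 0, against 15.4 to 132 CPM in the same ESC groups, and most of it in the PrE libraries was Cubn, with 742 and 224 CPM in EPZ_iPrE1 and 1323 and 4744 CPM in C57_PrESC. Afp, Ttr, Apoa1 and Cer1 were at 0.263 CPM or less in every PrE library.

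The signalling genes around the receptor showed no common direction. Of 25 genes of the PTHrP receptor pathway 21 were tested (Pth, Pth2, Pth2r and Pde4b were too low). In EPZ_iPrE2, 8 rose and 6 fell, in EPZ_iPrE1 7 rose and 6 fell, and in C57_PrESC 7 rose and 6 fell, and the medians were 0.16, -0.04 and -0.12. These shares are close to those over all genes, of which 28.8% rose and 33.4% fell in EPZ_iPrE2, 27.9% rose and 32.2% fell in EPZ_iPrE1, and 27.3% rose and 33.4% fell in C57_PrESC. For this list and the lists below, the shares over all genes were 25.8% higher and 22.7% lower in KO10_SL against E14_ESC, 20.9% higher and 24.1% lower in the rescued cells against KO10_SL, and 15.7% higher and 14.3% lower in KO10_S2iL against TG2A_S2iL. In KO10_SL against TG2A_ESC they were 13.6% higher and 14.1% lower. Ramp2, which encodes an accessory protein that binds this receptor, rose with it: it averaged 25.2 ± 0.610 CPM in EPZ_iPrE2 and 24.1 ± 1.18 CPM in EPZ_iPrE1, against 1.46 ± 0.361 CPM in TG2A_ESC (SD, n = 2 each). Its log2 fold change was 4.10 in EPZ_iPrE2, 4.04 in EPZ_iPrE1, 4.79 in C57_PrESC, 2.05 in KO10_SL (adjusted p = 1.38e-04) and 1.86 in KO10_S2iL (adjusted p = 0.00795). Its relative Ramp3 fell in the PrE lines, with log2 fold changes of -5.19 in EPZ_iPrE2, -4.71 in EPZ_iPrE1 and -3.34 in C57_PrESC. Adcy6, an adenylate cyclase that makes cAMP, rose in the PrE lines (3.10, 2.69 and 2.99 in the same order) but was not called in KO10_SL (-0.22, adjusted p = 0.409). In KO10_SL against E14_ESC, 7 of the 21 rose and 4 fell (median 0.17). Against TG2A_ESC, 2 of the 21 rose in KO10_SL and 3 fell (median 0.23). In the rescued cells against KO10_SL 4 rose and 6 fell (median 0.02), and in KO10_S2iL 7 rose and 2 fell (median 0.14).

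Around Plat, 9 of 11 genes of plasminogen activation were tested (Plg, the plasminogen gene itself, and Serpinf2 were too low). In both EPZ lines 3 rose and none fell (medians 2.47 in EPZ_iPrE2 and 2.51 in EPZ_iPrE1), and in C57_PrESC 4 rose and 1 fell (median 1.48). Anxa2, whose product binds tissue plasminogen activator at the cell surface, rose in all 3 PrE comparisons, with log2 fold changes of 4.11 in EPZ_iPrE2, 4.05 in EPZ_iPrE1 and 2.39 in C57_PrESC. The gene that fell was Serpinb2, an inhibitor of plasminogen activators, which like Thbd had 12.2 CPM in the second C57_ESC library and 0.212 CPM in the first, and whose fall was not called without the second (adjusted p = 0.585). Without the second C57_PrESC library, the list had 3 higher and 4 lower in C57_PrESC and its median was -1.48. Without the 4 libraries with more fibroblast markers, 4 of 8 tested rose and 1 fell in each EPZ line (medians 0.68 in EPZ_iPrE2 and 0.48 in EPZ_iPrE1). In KO10_SL against E14_ESC, 5 of the 9 rose and 1 fell (median 0.79). Among those that rose were Anxa2 (2.00, SE 0.297, adjusted p = 4.03e-05), its partner S100a10 (2.08, SE 0.152, adjusted p = 4.23e-08) and Plau, the urokinase gene (2.79, SE 1.04, adjusted p = 0.0357). Against TG2A_ESC, 3 of the 9 rose in KO10_SL and none fell (median 0.89). The rescued cells had 4 lower and none higher (median -1.94), and KO10_S2iL had 2 of the 9 higher, Anxa2 (2.25) and Serpine2 (2.26), a share near that over all genes.

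Around Thbd, 10 of 14 genes of the thrombin and protein C pathway were tested, and 7 rose and 2 fell in each PrE line (medians 2.12 in EPZ_iPrE2, 2.15 in EPZ_iPrE1 and 1.94 in C57_PrESC). F3, the tissue factor gene that starts coagulation, rose by 3.88, 3.72 and 4.67 on the log2 scale in the same order, and Procr, the protein C receptor gene, averaged 33.0 ± 15.5 CPM in C57_PrESC against 2.61 ± 0.272 CPM in C57_ESC (SD, n = 2 each; log2 fold change 3.65). Proc, the protein C gene itself, had 0 counts in all 6 PrE libraries, against 16 and 18 counts in TG2A_ESC. Tfpi2, a protease inhibitor, had 45 and 64 counts in EPZ_iPrE2 and 19 and 10 counts in EPZ_iPrE1, against none in TG2A_ESC. In KO10_SL against E14_ESC, 5 of the 10 rose and 1 fell (median 0.85): Procr rose (2.78, SE 0.318, adjusted p = 2.94e-06) and F2, the prothrombin gene, fell (-3.13, SE 0.479, adjusted p = 5.23e-05). Against TG2A_ESC, 3 of the 10 rose in KO10_SL and 2 fell (median -0.05), so the higher median was not shared by both wild-type sets. The rescued cells had 2 higher and 5 lower than KO10_SL (median -1.08), and KO10_S2iL had 2 of the 10 higher and 1 lower (median 0.36), again near the share over all genes.

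The proteoglycan list, 19 genes for other core proteins and for chain synthesis, did not share the size of the Srgn change. In EPZ_iPrE2 9 rose and 4 fell, in EPZ_iPrE1 9 rose and 6 fell, and in C57_PrESC 8 rose and 5 fell, with medians of -0.05, 0.21 and 0.06. Chst15, an enzyme that adds a second sulphate to chondroitin chains, rose by 4.59, 3.49 and 2.20 on the log2 scale in the same order and by 2.65 in KO10_SL (adjusted p = 1.96e-05). Gpc4, a glypican core gene, fell to 1.67 ± 0.900 CPM in EPZ_iPrE2 and 0.925 ± 0.646 CPM in EPZ_iPrE1, against 25.1 ± 0.460 CPM in TG2A_ESC (SD, n = 2 each). In KO10_SL against E14_ESC 6 rose and none fell (median 0.12), and against TG2A_ESC 7 rose and 1 fell (median 0.25). In the rescued cells against KO10_SL 1 rose and 7 fell (median -0.27), and in KO10_S2iL 8 rose and 1 fell (median 0.32).

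All 7 PrE factors rose in each of the PrE comparisons and in KO10_SL against E14_ESC. The medians were 6.22 in EPZ_iPrE2, 5.89 in EPZ_iPrE1, 5.16 in C57_PrESC and 4.87 in KO10_SL. Against TG2A_ESC, the wild type used for the EPZ lines, all 7 rose in KO10_SL with a median of 3.07. E14_ESC had 5 of the 7 lower than TG2A_ESC (median -2.30), so the knockout median depended on the wild-type set. All 7 fell in the rescued cells against KO10_SL (median -4.32). With 2i, 4 of the 7 rose in the knockout (median 2.62). Pth1r and Srgn were called in the same direction as these factors in the PrE lines, in KO10_SL and in the rescued cells.

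**Figure D5:**
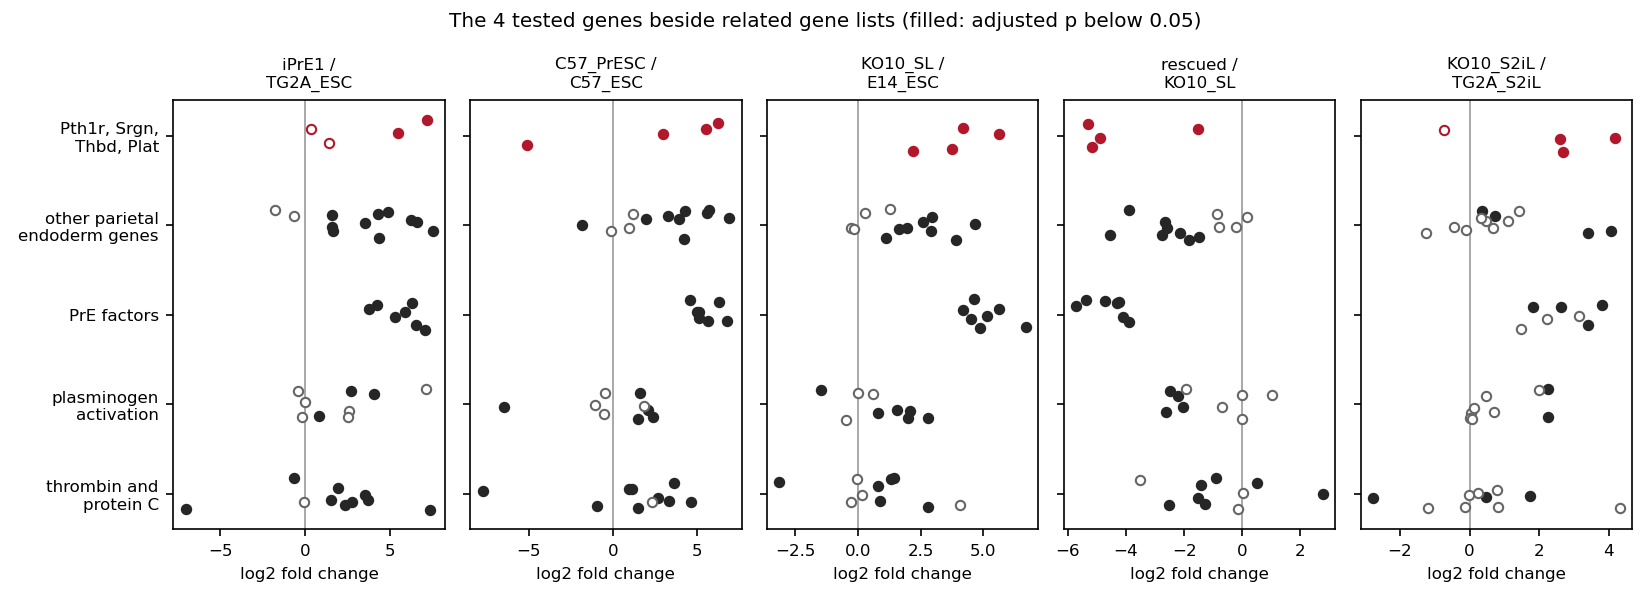
Log2 fold change (x axes, which differ between panels) of the 4 tested parietal endoderm genes (red) and of the genes of 4 related lists (black) in 5 comparisons, filled where the adjusted p was below 0.05, with points spread vertically only for legibility. All 7 PrE factors are filled and above 0 in the PrE and KO10_SL panels and below 0 in the rescued panel, while the plasminogen and thrombin lists lie on both sides of 0.

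Across the 10 group means of log2 CPM, the Pearson correlation was 0.981 between Pth1r and Srgn, 0.529 between Pth1r and Plat and 0.403 between Srgn and Plat. Thbd correlated with the other genes at 0.210 or less. These values describe 10 groups that share PrE and ESC origins and carry no test. Among 14154 genes ranked by the same measure, Pth1r was most like Cdh6 (0.997), Sox7 (0.990) and Procr (0.988), and Srgn was most like Nostrin (0.995), Bmper (0.992) and Flrt3 (0.991). Cdh6 had 8.56 CPM in EPZ_iPrE2, 7.17 CPM in EPZ_iPrE1, 18.1 CPM in C57_PrESC and 3.42 CPM in KO10_SL, against 1.09 CPM in C57_ESC. The genes most like Thbd were Ptgs2 (0.927), Prkd1 (0.920) and Stau2 (0.916), and those most like Plat were Tmem189 (0.964), Myzap (0.961) and Dach1 (0.958). Ptgs2 stood at 38.0 CPM in the second C57_ESC library, the library with the highest Thbd level, and at 0.583 CPM in the first.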

How the data were processed

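RNA was measured by RNA-seq in 22 libraries. Per the submitters' processing notes, the build was mm10, STAR 2.7.6a and Trim Galore were used and DESeq2 is also listed; no tool for counting, no annotation and no strand setting is named in the sources used here. The labels give the molecule as polyA RNA and the kit as rRNA depletion, so the RNA selection is uncertain. The authors deposited 1 table of estimated counts per gene symbol with no scaling. In each library 5.71 to 7.26% of symbols were not whole, so the values, planned as raw counts, were handled like expected counts and rounded for the tests. Reads matching several genes are thus shared by an unknown rule. The 2 columns named KO10.OE were assigned to the rescued cells because the series design text uses OE for them, and the 2 named TGNP.S2iL to TG2A_S2iL, the wild-type samples with LIF and 2i; both assignments are inferences.

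The test was edgeR 4.0.16 (under R 4.3.3). The filter was filterByExpr with the 10 groups as design and a minimum count of 10, and scaling was by TMM. All 22 libraries entered 1 quasi-likelihood fit, in which each group had its own coefficient and 12 degrees of freedom remained. The 14 comparisons were contrasts of this fit, with Benjamini-Hochberg adjustment over all 17547 tested genes and a call at an adjusted p below 0.05. All tests were two-sided. CPM use the TMM-scaled library sizes and SD is between replicates. The test was run first on simulated data. Count ratios carry exact 95% intervals, which cover counting error only.

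Positions come from GENCODE M21, and promoter windows from RefSeq (GRCm38.p6). The genes and lists were chosen with earlier results of these data known. The result of 1 gene of the planned PrE factor list is not reported here, and that list was summed and counted without it. Named genes were the 5 genes, the called genes of a list that changed most in a comparison described (up to 3 a list), and the 3 genes most alike to each of the tested genes (Pearson correlation of group-mean log2 CPM, prior 1, highest group mean at least 1 CPM). Vim, Fst, Krt19 and Sparc stand as list members. The visceral endoderm markers, the levels of Vim and single fibroblast markers in KO10_SL were chosen for display after their values were seen. So were Serpinb2 in C57_ESC and Ptgs2 in single libraries. Alternatives were RLE scaling, library totals, no filter, a replicate block, only the compared groups, DESeq2 1.42.0 and leaving out each library. The fit without the 4 libraries with more fibroblast markers was added after the data were seen, as were the counts of the related lists, Fst and Serpinb2 with libraries left out.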

Additional observations from a re-analysis of the deposited data

Results flagged for a closer look

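The PrE changes differed between the EPZ and C57 lines for Thbd and Plat. For Thbd, the mean log2 change of the EPZ lines less that of the C57 line was 6.70 (SE 1.56, adjusted p = 0.00302, edgeR's quasi-likelihood test of the difference itself). All 4 EPZ libraries were above both TG2A_ESC libraries, and both C57_PrESC libraries were below both C57_ESC libraries. The second C57_ESC library, with 242 Thbd counts, also had 451 CPM of fibroblast markers, and without it the difference was 3.83 (adjusted p = 0.0359). It was 5.80 without the first C57_PrESC library (adjusted p = 0.0113) and 7.59 without the first C57_ESC library (adjusted p = 1.30e-04).

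For Plat, the same difference was -2.38 (SE 0.767, adjusted p = 0.0234). Both C57_PrESC libraries were above both C57_ESC libraries, while the 4 EPZ libraries lay on both sides of the TG2A_ESC values. The difference was -1.53 and not called without the second C57_PrESC library (adjusted p = 0.137), which had 2027 CPM of fibroblast markers and 142 CPM of macrophage markers against 29.4 and 37.8 CPM in its partner. It was -3.09 without the second EPZ_iPrE2 library (adjusted p = 0.00250). It was also not called without the first C57_ESC library (adjusted p = 0.0797), without the first TG2A_ESC library (adjusted p = 0.0851) or in a fit to the compared groups alone (adjusted p = 0.118).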

How the results depend on the processing

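Over the 648 recomputed changes of the 4 tested genes, 591 kept their direction and their side of the threshold, 29 lost the call, 13 gained one and 15 turned direction, all 15 from an uncalled value. Leaving out 1 library at a time put the Pth1r difference between the EPZ and C57 changes at -0.30 to 0.53, and it was below 0 without EPZ_iPrE1 replicate 2 (-0.08), EPZ_iPrE2 replicate 1 (-0.09), C57_PrESC replicate 2 (-0.30) or C57_ESC replicate 2 (-0.21), and without the 4 libraries with more fibroblast markers (-0.30). Pth1r in EPZ_iPrE2 against EPZ_iPrE1 was -0.022 to 0.51, lowest without EPZ_iPrE2 replicate 1. Plat in EPZ_iPrE2 was -0.57 to 1.55 against TG2A_ESC and -0.90 to 1.22 against EPZ_iPrE1, lowest without EPZ_iPrE2 replicate 2, and -0.55 and -0.67 without the 4 libraries. In the rescued cells against E14_ESC, Srgn was -0.49 to 0.80, lowest without rescued replicate 1, and Thbd -4.57 to 0.74, highest without E14_ESC replicate 3, where the lowest value rests on 0 rescued counts and is no bound. Plat in TG2A_S2iL against TG2A_ESC was -0.77 to 0.25, above 0 without replicate 1 of TG2A_S2iL (0.25) or of TG2A_ESC (0.07). The Srgn difference between origins was -2.97 to 2.06, lowest without C57_ESC replicate 1, and without the 4 libraries it was 2.04 and called (adjusted p = 4.15e-05).

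Counts of called genes moved by over 1.5 times in some settings. Without the filter, 1143 genes were called in EPZ_iPrE2 against EPZ_iPrE1 (686 in the main fit), 389 in the rescued cells against E14_ESC (19) and 923 for the knockout effect by medium (343). DESeq2 called 1063, 184 and 992. In fits to only the compared groups, 28, 546 and 1795 were called in these 3 comparisons, 5383 in C57_PrESC against C57_ESC (10642), 3041 for the difference between origins (6165), 9606 in KO10_S2iL against TG2A_S2iL (5262) and 10037 against KO10_SL (6482). The 3 pairs with the same number in KO10_SL and E14_ESC deviated together by 0.115, -0.013 and 0.068, and 2 of the 3 numbers correlated best with their own. The same correlation of deviations was 0.304 in C57_PrESC against C57_ESC and -0.530 in EPZ_iPrE2 against EPZ_iPrE1. The main fit did not take the numbers as pairs in any comparison. With the replicate block, 6 genes were called in the rescued cells against E14_ESC and 165 for the effect by medium, and Thbd in KO10_SL against TG2A_ESC (2.96, adjusted p = 0.0584) and Plat in the rescued cells against KO10_SL (-1.41, adjusted p = 0.0532) were not called.

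Leaving out 1 library at a time called 9249 to 9612 genes in EPZ_iPrE1 and 9507 to 9924 in EPZ_iPrE2 against TG2A_ESC, 9728 to 10245 in C57_PrESC against C57_ESC, 5083 to 6287 for the difference between origins and 379 to 407 in EPZ_iPrE2 against EPZ_iPrE1. It called 7248 to 7675 in KO10_SL against E14_ESC, 3333 to 4405 against TG2A_ESC, 5407 to 7173 in the rescued cells against KO10_SL and 1 to 20 against E14_ESC. It called 2848 to 3156 in KO10_S2iL against TG2A_S2iL, 3847 to 5572 against KO10_SL, 2076 to 3544 in TG2A_S2iL against TG2A_ESC, 44 to 386 for the effect by medium and 1676 to 4088 in E14_ESC against TG2A_ESC.

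Library totals in place of TMM put the median log2 change of all genes at 0.17 (0.01 with TMM) in KO10_S2iL against TG2A_S2iL and at 0.20 (0.06) against KO10_SL. The share of calls that were higher was then 72.4% (52.3% with TMM) and 66.4% (53.2%), 60.2% (49.0%) in KO10_SL against TG2A_ESC, 63.0% (42.9%) for the effect by medium and 58.9% (46.2%) in E14_ESC against TG2A_ESC. RLE scaling gave 57.1% for the effect by medium. Thbd rests on 2 to 259 counts a group and Pthlh on at most 7, so their differences are limited by depth. The causes of these moves were not tested.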
